A study of Homo sapiens with 3 samples.

Results

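Mitochondrial fatty acid β-oxidation was examined here as 24 gene targets of a pooled CRISPR knockout screen in MIA PaCa-2 cells, an established human pancreatic ductal adenocarcinoma line. The members were all guides whose target is 1 of 24 named enzymes and transporters of the pathway. They were chosen by gene name and not by any measured value, although earlier results of these data were known at the time. All 24 genes were in the library, each with 10 guides, which gave 240 of the 30197 guides and 24 of the 2978 targeted genes. The library was a human metabolic gene knockout collection, and its guides to intergenic sequence served as controls.

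In β-oxidation, a fatty acid joined to coenzyme A is carried into the mitochondrion as its carnitine ester and is then shortened in repeated rounds. Each round has a dehydrogenation, a hydration, another dehydrogenation and a thiolytic cleavage that releases acetyl-CoA. Electrons from the acyl-CoA dehydrogenases pass through the electron transfer flavoprotein to ubiquinone, and odd-numbered chains end in propionyl-CoA, which is carboxylated and rearranged to succinyl-CoA. In many tissues the pathway supplies energy from fat, whereas tumour cell lines in rich medium also draw on glucose and glutamine.

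The study asked which metabolic gene knockouts altered the growth or survival of these cells while the lipid kinase PIKfyve was inhibited. Transduced, puromycin-selected cells were divided into an apilimod arm (a PIKfyve inhibitor, labelled 200 nM) and a DMSO arm (the solvent alone), each cultured for 14 days. Both were set against the initial population, labelled day 0 with no treatment. All 3 groups carried the same guide library. The study's text describes a low-dose screen collected on day 14 and a high-dose screen collected later. The 14 days of this library match the low-dose screen. The concentration that the text gives for that screen is not the labelled 200 nM, so the concentration behind the apilimod library is uncertain.

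Each group was 1 library of guide counts from amplified genomic DNA, so no difference has a replicate check. Every test below compares guides within these libraries, not conditions. The libraries held 25599416 counts for apilimod, 26276517 for DMSO and 24695476 for the initial population, with median counts per guide of 655, 663 and 651 in the same order. The 240 β-oxidation guides summed to 169859 counts in apilimod, 174178 in DMSO and 154593 in the initial population. These sums were 0.664% of the apilimod library (0.660 to 0.667, exact binomial 95% interval), 0.663% of the DMSO library (0.660 to 0.666) and 0.626% of the initial library (0.623 to 0.629). Such intervals cover counting error only. The share taken by the pathway's guides was thus slightly greater in both cultured arms than in the initial population. This share is not set against the control guides, whose median change was also a rise, as given below.

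A guide's log2 change was taken between its shares of 2 libraries, with 1 count added to each value. At least 100 initial counts were required of a guide, which kept 218 of the 240 β-oxidation guides and 7 to 10 guides for every one of the 24 genes. The gene score is the mean log2 change over a gene's kept guides, printed with the SD over those guides, which share a target and a library and are not replicates of a condition. A gene was called lower or higher where its guides differed from 487 control guides by the exact rank-sum test (two-sided), with p adjusted over 2969 genes by Benjamini-Hochberg (BH) and taken at below 0.05. Lower and higher therefore mean relative to the control guides, whose own median log2 change against the initial population was 0.22 (SD 0.73) in apilimod and 0.14 (SD 0.40) in DMSO.

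Most β-oxidation knockouts were not called in any comparison. In apilimod against the initial population, 2 of the 24 genes were called lower, ACAD9 and ECHS1, and 0 were called higher, where 29.0% of all genes were called lower and 0.236% higher. In DMSO against the initial population, 2 of the 24 were called lower, ACAD9 and MUT, and 0 higher, where 18.9% of all genes were called lower and 0.842% higher. In each arm the members called lower were thus 8.33% of the 24, a share below that of all genes at these settings. In apilimod against DMSO no member was called, where 1.18% of all genes were called lower and 0.0337% higher.

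The member scores were centred slightly above those of the library as a whole. Their median was 0.07 in apilimod (−1.56 to 0.61), where the median of all genes was −0.04, and 0.06 in DMSO (−1.02 to 0.38), where that of all genes was −0.03. By score, 20 of the 24 members were under the median of the controls in apilimod and 18 were in DMSO. Most genes of the library were too. The upper quartile of all gene scores was 0.171 in apilimod, under the control median of 0.222. In DMSO it was 0.137, under the control median of 0.141. Among single guides, 21 of 218 (9.63%) fell below the central 95% range of the control guides in apilimod and 20 of 218 (9.17%) did in DMSO. Over all gene-targeting guides these shares were 14.5% in apilimod and 13.5% in DMSO. Of the 21 low guides in apilimod 10 targeted ACAD9 or ECHS1, and of the 20 in DMSO 7 did. No other member had more than 3 such guides in apilimod or more than 2 in DMSO. The control range ran from −0.85 to 2.41 in apilimod and from −0.78 to 0.85 in DMSO, so its upper limit was far higher in apilimod. Above it lay 0 member guides in apilimod, where 0.282% of all gene-targeting guides did, and 11 (5.05%) in DMSO, where 3.62% did. The highest member guides in apilimod, sgDECR1_5 at 2.32 and sgACAA2_4 at 2.24, lay just inside that wide range.

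The counts behind these calls moved with the filters. When at least 300 initial counts were required, or each gene's most extreme guide was left out, 6 members were called lower in apilimod, with CPT1A, CPT1B, CPT1C and MCEE joining ACAD9 and ECHS1. These were 27.3% of the 22 members left by the stricter minimum, where 27.5% of all genes were called lower, and 6 of 24 without the most extreme guide, where 29.6% of all genes were. The gap between the members and all genes in apilimod was therefore lost with the stricter minimum and small without the most extreme guides. Under these settings CPT1B took the place of MUT among the 2 members called lower in DMSO, where 18.4% of all genes were called lower with the stricter minimum and 18.6% without the most extreme guides. When all gene-targeting guides replaced the controls as the comparison set, only ACAD9 was called, in apilimod and in DMSO alike, where 7.58% of all genes in apilimod and 7.44% in DMSO were called lower.

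ACAD9 gave the lowest score of the 24 members in both arms. Its product belongs by sequence to the acyl-CoA dehydrogenases, oxidises long-chain acyl-CoA, and is also an assembly factor of respiratory complex I. The gene lies at chromosome 3, positions 128879620 to 128913114, of the GRCh38.p14 assembly. Guide sgACAD9_4 had 23 counts in apilimod, 135 in DMSO and 435 in the initial population, and sgACAD9_1 had 45, 90 and 463 in the same order. These were the ACAD9 guides of lowest log2 change in apilimod (−4.24 and −3.39), and sgACAD9_1 was also the lowest in DMSO (−2.44). At the other end, sgACAD9_10 had 805 counts in apilimod, 579 in DMSO and 973 in the initial population, and sgACAD9_5 had 875, 1110 and 1180. All 9 kept guides were below the control median in each arm, with 6 of them below the control range in apilimod and 5 in DMSO.

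Together the kept ACAD9 guides summed to 3196 counts in apilimod, 4009 in DMSO and 6072 in the initial population. Scaled to counts per 1000000 library counts (CPM), this was 125 CPM in apilimod (121 to 129, exact binomial 95% interval), 153 CPM in DMSO (148 to 157) and 246 CPM in the initial population (240 to 252). The score was −1.56 ± 1.34 in apilimod (SD over 9 guides; BH-adjusted p = 8.47e-09, exact test) and −1.02 ± 0.75 in DMSO (BH-adjusted p = 1.89e-07, exact test). ACAD9 stood at rank 103 from the lowest of 2969 genes in apilimod and at rank 162 in DMSO, and dropping any 1 guide left the score between −1.72 and −1.23 in apilimod and between −1.12 and −0.84 in DMSO. The calls held under every alternative with a test. The excluded guide sgACAD9_6 had 0 counts in both cultured libraries and 41 in the initial population. With 3 counts taken as the floor of each library, it was at least 14.2-fold lower in apilimod and at least 14.5-fold lower in DMSO. Guides excluded for low initial counts moved both ways across the members. Among those that rose, sgHADHB_1 had 165 counts in apilimod, 61 in DMSO and 55 in the initial population. Guide sgETFA_3 had 84, 112 and 37 in the same order.

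The other acyl-CoA dehydrogenases, which insert the initial double bond in chains of different length, were not called in either arm. ACADVL acts on very long chains and scored −0.32 ± 0.98 in apilimod and −0.03 ± 0.52 in DMSO. The medium-chain enzyme ACADM scored 0.16 in apilimod and 0.05 in DMSO, and the short-chain enzyme ACADS 0.07 in apilimod and 0.22 in DMSO. ACADVL and ACADM each had 1 guide far below the others of its gene. Guide sgACADVL_2 had 46 counts in apilimod, 114 in DMSO and 240 in the initial population, and sgACADM_3 had 62, 167 and 310. The excluded guide sgACADVL_1 had 0 counts in apilimod, 10 in DMSO and 42 in the initial population, at least 14.5-fold lower in apilimod.

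ACADL, the long-chain enzyme, had only 7 kept guides and the third lowest score in apilimod. That score of −0.61 ± 1.94 rested on sgACADL_3, with 9 counts in apilimod, 103 in DMSO and 291 in the initial population. Without that guide it was 0.11. The DMSO score was −0.24 ± 0.82. A guide left out for low initial abundance, sgACADL_6, had 773 counts in apilimod, 178 in DMSO and 67 in the initial population, and so moved the opposite way to sgACADL_3. Another excluded guide, sgACADL_9, had 15 counts in apilimod, 0 in DMSO and 47 in the initial population, at least 16.7-fold lower in DMSO.

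Among the matrix enzymes of the later steps, ECHS1 was the exception. ECHS1 is the short-chain enoyl-CoA hydratase, which adds water across the double bond and also acts in valine breakdown. It lies at chromosome 10, positions 133362485 to 133373354. Guide sgECHS1_10 had 0 counts in apilimod, 0 in DMSO and 184 in the initial population, at least 63.6-fold lower in apilimod and at least 65.3-fold lower in DMSO against a floor of 3 counts per library. Next came sgECHS1_8, with 217 counts in apilimod, 477 in DMSO and 668 in the initial population, and sgECHS1_3, with 160, 239 and 493. In the opposite direction, sgECHS1_6 had 323 counts in apilimod, 209 in DMSO and 130 in the initial population. Guides of this gene therefore covered both directions, with 1 of them lost from both cultured libraries. The excluded guide sgECHS1_2 had 10 counts in apilimod, 0 in DMSO and 57 in the initial population, at least 20.2-fold lower in DMSO.

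The ECHS1 score was −1.29 ± 2.53 in apilimod (SD over 9 guides, 8 below the control median; BH-adjusted p = 0.00516, exact test). In DMSO it was −0.97 ± 2.56, with 6 of 9 guides below the control median and no call (BH-adjusted p = 0.245, exact test). Because a log2 change at 0 counts depends on the added count, the score was also taken with sgECHS1_10 at its bound, which gave −1.12 in apilimod and −0.79 in DMSO, and without that guide, which gave −0.51 ± 0.97 in apilimod and −0.13 ± 0.62 in DMSO (SD, 8 guides). The apilimod call held without the guide (BH-adjusted p = 0.0180, exact test) and was lost only against all gene-targeting guides (BH-adjusted p = 0.198, binned rank test). The rank-sum test uses the order of guides and not the size of this change. Kept guides summed to 3299 counts in apilimod, 5199 in DMSO and 4903 in the initial population, or 129 CPM (125 to 133), 198 CPM (193 to 203) and 199 CPM (193 to 204) with exact binomial 95% intervals.

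Neither HADH nor ACAA2 was called. HADH, the short-chain 3-hydroxyacyl-CoA dehydrogenase, scored 0.11 in apilimod and −0.07 in DMSO, and its 9 guides stayed between −0.46 and 0.78 in apilimod. ACAA2, the thiolase that cleaves medium-chain 3-ketoacyl-CoA, scored 0.28 ± 1.04 in apilimod and 0.04 in DMSO over 10 guides. Its guides were widely spread in apilimod. Guide sgACAA2_4 had 713 counts in apilimod, 101 in DMSO and 145 in the initial population, whereas sgACAA2_7 had 116, 180 and 312. Without sgACAA2_4 the apilimod score was 0.07, below the control median.

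The trifunctional protein carries out the last 3 reactions on long chains, with hydratase and dehydrogenase activity in the HADHA subunit and thiolase activity in HADHB. Neither subunit was called in either arm. HADHA scored 0.17 in apilimod and 0.08 in DMSO, and HADHB 0.10 in apilimod and −0.04 in DMSO, with 9 kept guides each. The genes are neighbours on chromosome 2, HADHA at 26190635 to 26244632 and HADHB at 26244939 to 26290465. The most abundant guide of the complex, sgHADHB_4, had 4048 counts in apilimod, 4148 in DMSO and 3493 in the initial population, a log2 change of 0.16 in both arms. Only sgHADHA_2 lay well below the rest in both arms, with 125 counts in apilimod, 101 in DMSO and 288 in the initial population. Guide sgHADHB_9 was below the control range in DMSO alone, with 951 counts in apilimod, 387 in DMSO and 632 in the initial population.

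The carnitine shuttle brings long-chain acyl groups into the matrix: a CPT1 enzyme on the outer membrane makes the carnitine ester and CPT2 on the inner membrane reverses the reaction. CPT1A is the form of liver and many other tissues, CPT1B that of muscle, and CPT1C a brain form found at the endoplasmic reticulum. None of the 4 genes was called with the filters used here. In apilimod they spanned the narrow range from −0.14 for CPT1A to −0.02 for CPT2, with CPT1B at −0.08 and CPT1C at −0.06. In DMSO the range was from −0.24 for CPT1B to 0.10 for CPT1C, with CPT1A at −0.05 and CPT2 at 0.06. CPT1B came nearest to a call in each arm, at −0.08 ± 0.41 in apilimod (BH-adjusted p = 0.0894, exact test) and −0.24 ± 0.56 in DMSO (BH-adjusted p = 0.112, exact test).

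Guides of CPT1A were spread to both sides in apilimod. Guides sgCPT1A_1, sgCPT1A_5 and sgCPT1A_9 were at −0.88, −0.92 and −0.98, all below the control range. The last of these had 256 counts in apilimod, 340 in DMSO and 488 in the initial population. By contrast, sgCPT1A_8 had 536 counts in apilimod, 338 in DMSO and 182 in the initial population. It was this guide of low initial abundance that the stricter filters removed when CPT1A was called. The excluded guide sgCPT1A_6 had 415 counts in apilimod, 40 in DMSO and 35 in the initial population. Excluded sgCPT1A_4 had 100, 325 and 76 in the same order.

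The auxiliary enzymes let chains with pre-existing double bonds enter the cycle, ECI1 and ECI2 by moving a double bond and DECR1 by reducing a dienoyl-CoA. These 3 genes had positive scores in both arms and no call. In apilimod, ECI1 and ECI2 were nevertheless under the control median of 0.22. ECI1 scored 0.08 in apilimod and 0.26 in DMSO, and ECI2 0.16 in apilimod and 0.28 in DMSO. DECR1 had the highest score of the 24 members in apilimod, 0.61 ± 0.99 over 9 guides with 5 above the control median (BH-adjusted p = 0.564, exact test), and 0.36 ± 0.60 in DMSO with 7 of 9 above. Its apilimod value leaned on sgDECR1_5, with 1347 counts in apilimod, 217 in DMSO and 260 in the initial population, and on sgDECR1_2, with 1338, 512 and 390. Most other DECR1 guides changed less, and sgDECR1_8 was lower in apilimod, with 85 counts there, 227 in DMSO and 141 in the initial population.

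The electron transfer flavoprotein, a heterodimer of ETFA and ETFB, takes electrons from all the acyl-CoA dehydrogenases and hands them to ETFDH, which reduces ubiquinone. Knockout of this common outlet was not called in either arm. ETFA scored 0.08 in apilimod and 0.09 in DMSO, and ETFDH 0.07 in apilimod and 0.11 in DMSO. ETFB scored −0.26 ± 1.24 in apilimod and 0.06 ± 0.65 in DMSO over 9 guides. The lower apilimod value of ETFB came from sgETFB_3, with 25 counts in apilimod, 87 in DMSO and 245 in the initial population, and was 0.12 without it. The excluded guide sgETFDH_2 had 0 counts in apilimod, 52 in DMSO and 92 in the initial population, at least 31.8-fold lower in apilimod. Excluded sgETFB_1 had 30 counts in apilimod, 0 in DMSO and 62 in the initial population, at least 22.0-fold lower in DMSO.

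The propionyl-CoA branch comprises PCCA and PCCB, the subunits of biotin-dependent propionyl-CoA carboxylase, the epimerase MCEE and the cobalamin-dependent mutase MUT, now named MMUT. PCCA scored 0.25 in apilimod and 0.18 in DMSO, and PCCB 0.26 in apilimod and 0.38 in DMSO. PCCB had the highest DMSO score of the 24 members, 0.38 ± 0.37 over 10 guides with 7 above the control median, and was not called (BH-adjusted p = 0.245, exact test). The SD over PCCA guides was 0.18 in apilimod and 0.29 in DMSO, and that over PCCB guides was 0.37 in each arm. PCCB had 2 guides above the control range in DMSO. The PCCB guide of greatest gain in DMSO, sgPCCB_10, had 1577 counts in apilimod, 2679 in DMSO and 1220 in the initial population. The lowest PCCB guide in DMSO, sgPCCB_1, had 1229 counts in apilimod, 1046 in DMSO and 998 in the initial population.

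MUT was called lower in DMSO and not in apilimod. It lies at chromosome 6, positions 49430360 to 49463253. The score was −0.12 ± 0.47 in apilimod, with 6 of 8 guides below the control median (BH-adjusted p = 0.160, exact test), and −0.35 ± 0.57 in DMSO, with 7 of 8 below (BH-adjusted p = 0.0239, exact test). Guide sgMUT_4 was the lowest in DMSO, with 118 counts in apilimod, 76 in DMSO and 216 in the initial population, and sgMUT_7 the highest, with 533, 591 and 425. Kept MUT guides summed to 8622 counts in apilimod, 7721 in DMSO and 8279 in the initial population, or 337 CPM (330 to 344), 294 CPM (287 to 300) and 335 CPM (328 to 343) with exact binomial 95% intervals. The summed MUT counts were thus lower in DMSO than in the initial population, while those in apilimod were not. The DMSO call was lost in 4 alternatives. Without sgMUT_4 the score was −0.18 (BH-adjusted p = 0.0729, exact test). With at least 300 initial counts it was −0.12 (BH-adjusted p = 0.150, exact test), and with no minimum −0.15 (BH-adjusted p = 0.141, exact test). Against all gene-targeting guides the BH-adjusted p was 0.454 in the binned rank test.

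MCEE scored −0.03 in apilimod, with 9 of 10 guides below the control median (BH-adjusted p = 0.0652, exact test), and 0.09 in DMSO. Of its 9 lower guides in apilimod, sgMCEE_4 was at −0.81 and the rest lay between −0.29 for sgMCEE_2 and 0.05 for sgMCEE_9, while sgMCEE_7 stood apart with 361 counts in apilimod, 425 in DMSO and 156 in the initial population.

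For apilimod against DMSO, the guide changes of both arms were scaled so that the control median was 0 and the median score of 24 nucleotide synthesis genes was −1, and the difference was expressed as a z-value over all genes. The unscaled log2 ratio of the 2 libraries is printed beside it. The exact test used the scaled differences of the guides, not this ratio. These comparisons share the initial library, so the 2 arms' scores are not independent of each other. The median z of the 24 members was −0.25 (−1.90 to 0.95), with 14 of 24 below 0, and their median log2 ratio was −0.08, where that of all genes was −0.01. The order of these medians depended on the filter: the scaled difference had a median of −0.0784 over the members and −0.0431 over all genes, but −0.00777 over the members and −0.0289 over all genes with a minimum of 30 initial counts, and −0.0208 over the members and −0.0272 over all genes with none. At an unadjusted p below 0.05 by the exact rank-sum test, 2 members were lower (ACAD9 and ECHS1) and 0 higher, where 324 and 49 of 2969 genes were. For the scaled difference the central 95% range of the control guides ran from −0.39 to 1.21 around a median of −0.03. Its upper side was thus much the wider. Below this range lay 27 of 218 member guides (12.4%), where 10.6% of all gene-targeting guides did. Above it lay 2 (0.917%), where 0.674% of all gene-targeting guides did.

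ACAD9 was the member of lowest value, with a log2 ratio of −0.55 ± 0.87 over 9 guides and a z of −1.90 (BH-adjusted p = 0.185, exact test). ACADL followed with a log2 ratio of −0.37 ± 1.45 and a z of −1.28, which rested on sgACADL_3. ECHS1 had a log2 ratio of −0.33 ± 0.69 and a z of −1.11 (BH-adjusted p = 0.322, exact test). With at least 300 initial counts required, ECHS1 was the only member called lower, where 0.684% of all genes were. At the upper end, DECR1 had a log2 ratio of 0.26 ± 1.20 and a z of 0.95, and ACAA2 had 0.24 ± 1.28 and 0.90. The SD over guides was several times the mean for DECR1 and ACAA2, and neither value kept its sign without its most extreme guide. MUT, with a log2 ratio of 0.23 and a z of 0.88, was not called, so its differing calls in the 2 arms do not show that the arms differed. HADHA had the smallest SD over guides of the 24 members, with a log2 ratio of 0.09 ± 0.20.

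Control guides of low initial abundance stood apart in the apilimod library. For the 20 control guides that started with at least 100 but fewer than 200 counts, the median log2 change was 1.91 in apilimod and −0.06 in DMSO. The 29 member guides in the same range had medians of 0.37 in apilimod and 0.46 in DMSO. When only control guides with at least 200 initial counts were used, the same 2 members, ACAD9 and ECHS1, were called lower in apilimod.

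Lists of genes that act next to the pathway are given as counts, to be read against the 29.0% of all genes called lower in apilimod and the 18.9% in DMSO. Complex I has ACAD9 as an assembly factor, and 26 of its 34 measured subunit genes were called lower in apilimod and 25 in DMSO, with median scores of −0.81 and −0.64. Of 3 measured assembly factors other than ACAD9, NDUFAF1 and FOXRED1 were called lower in both arms. FOXRED1 scored −1.15 in apilimod and −0.51 in DMSO, and NDUFAF1 −0.63 in apilimod and −0.58 in DMSO. The remaining one, NDUFAF2, was at −0.02 in apilimod and −0.11 in DMSO and was not called.

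Acyl-CoA dehydrogenases and the electron transfer flavoprotein need FAD, which is made from riboflavin. Of 3 measured FAD supply genes, 2 were called lower in each arm. The riboflavin kinase gene RFK was called in both, with −2.15 ± 2.21 in apilimod and −1.46 ± 1.12 in DMSO (SD over 10 guides), FLAD1, which encodes FAD synthase, only in apilimod with −0.56, and the folate and FAD carrier gene SLC25A32 only in DMSO with −0.16. No test of the difference between arms called any of them. For RFK the log2 ratio of apilimod over DMSO was −0.69 ± 1.49. Its scaled difference, which the test used, was −0.37 ± 0.72 (BH-adjusted p = 0.0527, exact test).

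Carnitine supply and short-chain carnitine transfer had 2 of 9 genes called lower in apilimod and 1 of 9 in DMSO. CRAT, which moves acetyl groups between coenzyme A and carnitine, was at −0.69 ± 0.59 in apilimod and −0.35 ± 0.29 in DMSO, with all 10 guides below the control median in each arm. ALDH9A1, which acts in carnitine synthesis, was called lower in apilimod at −0.22. Of 7 measured genes for cobalamin handling, the lysosomal exporter gene ABCD4 and the processing gene MMACHC were called lower in both arms, ABCD4 at −0.85 in apilimod and −0.64 in DMSO and MMACHC at −0.46 in apilimod and −0.24 in DMSO. Among 6 other acyl-CoA dehydrogenases, ACAD10 alone was called lower, at −0.30 in apilimod and −0.20 in DMSO. Of 7 ketone body genes, BDH2 was called lower in apilimod at −0.19 and none was called in DMSO.

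Peroxisomal β-oxidation shortens very long and branched chains, and some of its genes were called as well. The multifunctional enzyme gene HSD17B4 was called lower in both arms, at −0.51 ± 0.95 in apilimod and −0.48 ± 0.68 in DMSO (SD over 10 guides). ABCD3, which encodes a transporter of the peroxisomal membrane, was called lower in apilimod at −0.18, and SCP2 was called lower in DMSO at −0.35. AMACR, a racemase for branched chains, was called higher in DMSO at 0.50 ± 0.39. No gene of the neighbouring lists described here was called in apilimod against DMSO.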

How the data were processed

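The authors deposited guide counts as whole numbers, 1 table per library and 1 for the series, and the tables agreed in all 90591 cells compared (0 differed). Per the labels, guides were amplified from genomic DNA and sequenced. The submitters' processing notes name bcl2fastq, cutadapt 4.1, Bowtie2 2.4.5, MAGeCK 0.5.9.5 and the build hg38. Per the study's methods, reads were trimmed to the guide and aligned to the guide library. PCR reads carried no stated molecular identifiers.

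Counts were divided by the library total after 1 was added. Guides under 100 initial counts (1630 in all) and genes under 6 remaining guides were left out, which kept 28042 guides and 2969 genes. The intergenic guides were set against the guides of each gene by the exact two-sided rank-sum test, adjusted by Benjamini-Hochberg over all genes (Python 3.11.15, NumPy 2.4.6, pandas 2.3.3, SciPy 1.17.1), tested on simulated data. Gene positions are from RefSeq GRCh38.p14, in which all 24 members matched, MUT through its synonym.

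Members were all reported, with full values for those called and for the 2 lowest and 2 highest scores of each comparison. Members and lists were chosen with earlier results of these data known. Alternatives changed the count minimum, the added count, the control set, the scaling reference and the gene summary, or left out guides. Some peroxisomal results are not reported here.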

Additional observations from a re-analysis of the deposited data

How the results depend on the processing

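No paired analysis was possible because each group had 1 library, and no replicate could be left out. Members called lower in apilimod numbered 6 with at least 300 initial counts (763 of 2778 genes), 6 without each gene's farthest guide (880 of 2969 genes) and 1 against all gene-targeting guides (225 of 2969), where 2 were called with the settings used (862 of 2969). In DMSO 1 was called with no minimum (538 of 2970 genes) and 1 against all gene-targeting guides. In apilimod against DMSO 1 was called with at least 300 initial counts, a filter that left 22 members. None was called higher under any setting. Uncalled values changed side: ACAA2 in apilimod (0.12 with at least 300 initial counts, 0.067 without the farthest guide), and in apilimod against DMSO ACAA2 (−0.075 and −0.064 under the same settings), ACADL (0.17 with at least 30, 0.17 with no minimum, 0.021 without the farthest guide, 0.057 as a median) and DECR1 (−0.062 without the farthest guide). The cause was not tested. Over all genes, apilimod against DMSO gave 35 lower and 1 higher, but 9 and 6 with complex I as the reference (60.0% of calls lower, where it was 97.2%), 5 and 1 against all guides, 18 and 1 against the abundant controls, 19 and 1 with at least 300 counts, 23 and 2 with at least 30 or no minimum, and 57 and 1 without the farthest guide. Against all guides, apilimod gave 225 lower and 81 higher and DMSO 221 and 50. Without the farthest guide DMSO gave 54 higher, where 25 were called, and apilimod gave 12 to 14 higher, where 7 were called, without the farthest guide, with no minimum, with at least 300 counts or against the abundant controls. The ACAD9 calls held under every setting with a test, and the lost calls of ECHS1 and MUT are given beside those genes. Guides under 100 initial counts, 22 of the 240, were too shallow to score. Of these, the guides printed with fold bounds were those with 0 counts in a cultured library, while some others rose.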
